A study of Mus musculus with 23 samples.

Results

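Mouse skin taken 24 h after a single exposure to ultraviolet light (UV) was compared with skin taken 6 h after it, in animals whose backs had been painted with the solvent DMSO. The question was which early changes in RNA level had faded by 24 h, which persisted and which began late. The comparison uses 8 of the 23 arrays of the series, 4 at each time, selected by their labels, and covers all 19645 probe sets of the array. The animals were adult females of the outbred CD-1 stock, with no genetic modification stated. The DMSO was applied to shaved back skin 2 h before 10 kJ/m2 of UV, a mixture of mostly UVB with UVA. A further 4 DMSO arrays came from sham-exposed skin taken 6 h after the sham exposure, so the skin at 24 h has no sham control of its own age. Skin painted with 4 mg of AG825 in DMSO, a tyrphostin that inhibits the kinase of the growth factor receptor Erbb2, gave 4 arrays at 6 h and 3 at 24 h after the same exposure. These 7 arrays do not enter the DMSO differences, but all 23 arrays share the estimate of the spread and so bear on their standard errors and p-values. Whether each replicate was its own animal is not stated in the labels, and the p-values therefore reflect only how far these samples differ from each other, which may be technical.

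UVB is absorbed in the epidermis, where it damages DNA and sets off the release of chemokines and cytokines from keratinocytes. These draw neutrophils and then monocytes into the dermis, while dividing cells pause and later re-enter the cycle to thicken the epidermis. Interferons add a further layer: they act through transcription factors that bind near the start of their target genes, among them the chemokines Cxcl9, Cxcl10 and Cxcl11, which attract T cells, and a family of immunity-related GTPases that defend cells against intracellular microbes.

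Values are log2 signals, so a difference of 1 is a 2-fold change, written with the standard error (SE) of the limma model. A probe set was called at an adjusted p of 0.05 over all probe sets. The share of probe sets detected was 62.3 to 69.2% on the 6 h arrays and 65.2 to 71.4% on the 24 h arrays. Arrays correlated within the 6 h group at r of 0.959 to 0.985, and within the 24 h group at 0.969 to 0.990. Keratinocyte and fibroblast markers were detected on all 12 DMSO arrays, including Krt5, Krt14, Col1a1 and Dcn. The T cell marker Cd3d was detected on 1 of 4 sham arrays and on none at 6 h or 24 h. The other T cell markers were detected more often. Cd3g was detected on 4 arrays in sham, 4 at 6 h and 3 at 24 h, and Cd3e on 2, 1 and 1. The red cell gene Hba-a1 was detected on no DMSO array, and Alas2 on 2 at 6 h and 1 at 24 h. No marker of the 47 measured was called between the times.

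Between 6 h and 24 h, 9 of 19645 probe sets were called (0.0458%), of which 5 rose and 4 fell. With the spread estimated from the 12 DMSO arrays alone 7 were called, and from the 8 compared arrays alone 1. The fallers were the interferon-induced chemokines Cxcl10 and Cxcl11, the immunity-related GTPase Irgm2 and the small heat shock protein Hspb1, and each had risen by 6 h. The risers were the receptor Cxcr4, which was not called against sham at 6 h, and 4 probe sets that were called lower then. These were Lasp1, Galnt2, Dera and a probe set assigned to several genes. At an unadjusted p of 0.05, 2680 probe sets (13.6%) differed, 1305 of them higher at 24 h and 1375 lower. On 1095 probe sets (5.57%) the 4 arrays of one time did not overlap the 4 of the other. The median difference over all probe sets was -0.03 and the median SE was 0.13. The adjusted p-values had a step just above the threshold: 37 probe sets shared the next value, 0.0535, and 121 lay below 0.10.

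The promoters of 2 of the called fallers and of the late riser are shown because interferon-induced genes made up most of the called fallers. Cxcl11, also an interferon-induced called faller, is not shown. Igtp, another GTPase of the Irgm2 family, was not called between the times and is added beside Irgm2. Sequences are from RefSeq (GRCm38.p6), 250 bases before to 50 bases after the annotated start, on the gene's own strand. Capitals mark matches to 2 motifs searched on both strands: the core of the interferon-stimulated response element (GAAANNGAAA) and an NF-kB site (GGGANNTTCC).
Cxcl10, chr5:92348840-92349139, minus strand: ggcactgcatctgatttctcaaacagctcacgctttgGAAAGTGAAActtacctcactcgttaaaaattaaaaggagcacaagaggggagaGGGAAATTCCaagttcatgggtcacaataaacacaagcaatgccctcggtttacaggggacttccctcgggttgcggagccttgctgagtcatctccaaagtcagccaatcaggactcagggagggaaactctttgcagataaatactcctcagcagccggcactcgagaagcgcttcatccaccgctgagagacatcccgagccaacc
Irgm2, chr11:58214727-58215026, plus strand: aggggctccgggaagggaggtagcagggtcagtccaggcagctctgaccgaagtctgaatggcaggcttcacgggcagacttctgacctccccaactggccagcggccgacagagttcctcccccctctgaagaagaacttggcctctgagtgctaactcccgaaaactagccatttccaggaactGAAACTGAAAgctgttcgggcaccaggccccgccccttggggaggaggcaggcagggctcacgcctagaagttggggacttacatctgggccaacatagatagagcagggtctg
Igtp, chr11:58199306-58199605, plus strand: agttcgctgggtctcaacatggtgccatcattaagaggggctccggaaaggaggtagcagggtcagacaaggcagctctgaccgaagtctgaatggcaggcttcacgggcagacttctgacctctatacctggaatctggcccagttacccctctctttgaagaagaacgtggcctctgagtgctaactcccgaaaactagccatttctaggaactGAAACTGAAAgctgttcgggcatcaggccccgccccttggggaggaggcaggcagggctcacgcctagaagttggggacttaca
Cxcr4, chr1:128592250-128592549, minus strand: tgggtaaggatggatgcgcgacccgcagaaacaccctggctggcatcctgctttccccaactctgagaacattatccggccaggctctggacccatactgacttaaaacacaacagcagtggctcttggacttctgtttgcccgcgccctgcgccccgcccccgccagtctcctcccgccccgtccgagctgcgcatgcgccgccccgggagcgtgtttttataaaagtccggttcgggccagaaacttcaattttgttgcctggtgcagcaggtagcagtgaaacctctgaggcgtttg
In Cxcl10 the response element GAAAGTGAAA began at -213 and the NF-kB site GGGAAATTCC at -159 from the start. Irgm2 and Igtp both carried the element as GAAACTGAAA, at -64 in Irgm2 and at -34 in Igtp. The Cxcr4 window held neither motif. Among 32851 promoters of the table, 3.44% held the response element and 1.47% the NF-kB site. Of 19 interferon-responsive genes with a promoter there, 10 held the response element and 3 the NF-kB site, counting a gene if any of its promoters matched. The 2 shares before count promoters and not genes. The matches printed do not overlap each other. A match is a run of letters and not a measured binding site.

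Cxcl10, a ligand of the receptor Cxcr3, had the largest fall among the called probe sets. Its log2 signal was 10.65, 10.14, 10.11 and 10.24 on the 6 h arrays and 7.91, 7.79, 8.49 and 8.31 on the 24 h arrays. Every 24 h value lay well below every 6 h value. The difference was -2.16 ± 0.40 (n = 4 and 4, adjusted p = 0.0497). The gene was called absent on all 4 sham arrays, where it measured 7.16 to 7.63, and was at least 7.60-fold above that at 6 h. At 24 h it was 0.77 ± 0.40 above sham and no longer called (adjusted p = 0.299).

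Cxcl11, which binds the same receptor, varied more at 6 h. It measured 9.46, 6.90, 8.20 and 8.37 at 6 h and 6.40, 6.30, 6.44 and 6.78 at 24 h. One 6 h array, replicate E, stood only just above the 24 h values. The difference was -1.75 ± 0.32 (adjusted p = 0.0497). By 24 h the level was 0.10 ± 0.32 from sham (adjusted p = 0.934). A second Cxcl11 probe set showed no such fall, with a difference of -0.10 (adjusted p = 0.624).

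Irgm2 measured 10.39, 9.93, 9.69 and 9.45 at 6 h and 8.17, 7.91, 9.13 and 8.70 at 24 h. The groups did not overlap, and the fall was -1.39 ± 0.25 (adjusted p = 0.0497). Unlike the chemokines it remained called against sham, by 2.92 ± 0.25 at 6 h and 1.53 ± 0.25 at 24 h. Its relative Igtp measured 11.62, 11.38, 11.38 and 11.07 at 6 h and 9.56, 9.24, 10.69 and 10.09 at 24 h, also without overlap. Its difference of -1.47 ± 0.30 stood at the step above the threshold (adjusted p = 0.0535). These GTPases are related in sequence, and cross-hybridisation between them was not tested.

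The list of interferon-responsive genes had 23 measured members of 26, Irgm2 not among them. All 23 were called higher at 6 h against sham, where 7.77% of all probe sets were, and 10 of them at 24 h, against 4.89% of all. Between the times 2 members were called lower, Cxcl10 and Cxcl11, and none higher. The sign of the difference was negative in 23 of 23, and the median was -0.83 beside -0.03 over all probe sets. Of the 23, 16 had an unadjusted p under 0.05, beside 13.6% of all probe sets. On 10 the arrays did not overlap, beside 5.57% of all. Both times are measured against the same sham arrays. The median was 1.71 above sham at 6 h and 0.86 at 24 h.

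Members without a call differed widely in size. The transcription factor Irf1 differed by -0.78 ± 0.17 (adjusted p = 0.0548), the GTPase Iigp1 by -1.49 ± 0.36 (adjusted p = 0.0914) and the antiviral gene Ifit1 by -1.21 ± 0.46 (adjusted p = 0.266). Cxcl9 differed by -1.20 ± 0.51 (adjusted p = 0.316) and stayed at least 4.39-fold above sham at 24 h, where sham arrays called it absent. The immunoproteasome subunits Psmb8 and Psmb9 moved least, by -0.13 ± 0.27 and -0.13 ± 0.23. The list score, the mean of the members' log2 values centred over all arrays, was 1.00, 0.53, 1.15 and 1.09 at 6 h and -0.05, -0.39, 0.31 and 0.27 at 24 h, without overlap. Macrophage and general leukocyte markers, some of the cells that could carry such genes, had scores of 0.63 to 1.04 at 6 h and 0.17 to 1.16 at 24 h. In whole skin, fewer cells of a type and less RNA per cell cannot be told apart.

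**Figure D1:**
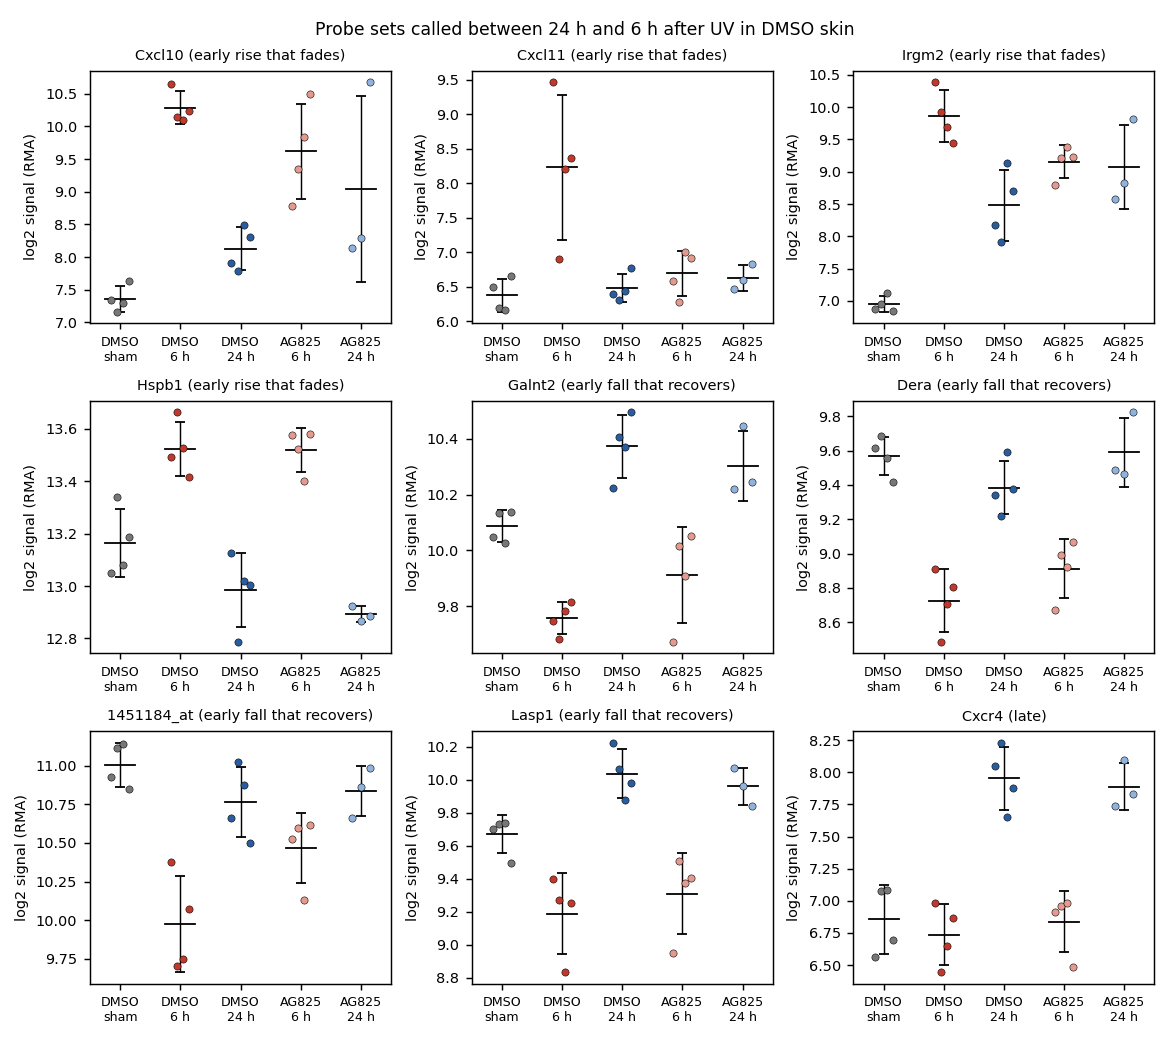
Log2 signal (RMA, vertical axis) of the 9 probe sets called between 24 h and 6 h in DMSO skin, by group; points are arrays, lines the mean and bars the SD (n = 4, and 3 for AG825 at 24 h). In each panel the 4 DMSO arrays at 24 h lie apart from the 4 at 6 h; in Cxcl10, one AG825 array at 24 h, at 10.68, lies with the 6 h values.

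Hspb1, a small heat shock protein abundant in epidermis, fell by the least of the called fallers and with the smallest error. It measured 13.49, 13.66, 13.53 and 13.42 at 6 h and 13.12, 12.79, 13.02 and 13.00 at 24 h. The groups were apart, with a difference of -0.54 ± 0.09 (adjusted p = 0.0205), and the 24 h level was -0.18 ± 0.09 from sham. It was the 1 call among 19 heat shock and unfolded protein response genes, whose median difference was -0.03. The inducible chaperone Hspa1a had a difference of -0.57 ± 0.17 (adjusted p = 0.175).

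Immediate early genes, the factors induced within minutes of a stimulus, gave no call in 23 measured members, with a median of -0.19 and 18 of 23 negative. Atf3, a stress-induced factor of the ATF family, measured 8.57, 8.99, 8.95 and 8.76 at 6 h and 8.49, 7.78, 7.67 and 7.86 at 24 h. Its difference was -0.87 ± 0.20 (adjusted p = 0.0797). Zfp36, which hastens the decay of cytokine mRNAs, differed by -0.67 ± 0.16 (adjusted p = 0.0885). The p53 target Pmaip1, which promotes cell death, differed by -0.96 ± 0.33 (adjusted p = 0.229), and the cytokine Csf2 by -0.42 ± 0.09 (adjusted p = 0.0535), although Csf2 was called absent on every DMSO array. Each of these 4 had been called higher at 6 h.

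The probe sets that fell early and then recovered were 4 in number. Lasp1, an actin-binding scaffold of focal adhesions, measured 9.40, 9.27, 8.83 and 9.25 at 6 h and 10.23, 10.07, 9.88 and 9.98 at 24 h. Every 24 h array was above every 6 h array and above every sham array, whose highest was 9.74. The rise was 0.85 ± 0.12 (adjusted p = 0.0102), from a level of -0.48 ± 0.12 against sham at 6 h, and the level at 24 h was 0.37 ± 0.12 above sham without a call (adjusted p = 0.0727). A second Lasp1 probe set differed by 0.12 (adjusted p = 0.805).

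Galnt2 starts mucin-type O-glycosylation in the Golgi. Its values were 9.75, 9.68, 9.78 and 9.82 at 6 h and 10.22, 10.41, 10.37 and 10.50 at 24 h, apart from each other and on either side of sham. The rise was 0.62 ± 0.10 (adjusted p = 0.0183), and a second probe set gave 0.95 (adjusted p = 0.235). Dera, an aldolase that breaks down deoxyribose phosphate, measured 8.91, 8.48, 8.70 and 8.81 at 6 h and 9.34, 9.22, 9.59 and 9.38 at 24 h. It rose by 0.66 ± 0.11 (adjusted p = 0.0413) to a level -0.18 ± 0.11 from sham. The fourth probe set, whose annotation names several genes and which is left without one, rose by 0.79 ± 0.14 (adjusted p = 0.0497), from 10.37, 9.70, 9.75 and 10.07 to 10.66, 11.02, 10.87 and 10.50. Its groups did not overlap, although its 6 h replicate C lay close to the lowest 24 h array.

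No member of the proliferation lists was called between the times, yet most leaned the same way. Of 21 mitotic genes, 18 were called lower at 6 h against sham and 2 at 24 h, beside 10.7% and 3.83% of all probe sets. Between the times 19 of 21 were higher at 24 h, 15 with an unadjusted p under 0.05, and the median was 0.62. Of 25 G1/S and DNA replication genes, 18 were called lower at 6 h and 0 at 24 h. Between the times 24 of 25 were higher, 16 with an unadjusted p under 0.05, with a median of 0.42. Over all probe sets, 13.6% had an unadjusted p under 0.05, in either direction.

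Cdk1, the kinase that drives entry into mitosis, measured 9.36, 8.34, 8.48 and 8.83 at 6 h and 9.45, 9.75, 9.76 and 9.68 at 24 h. The difference was 0.91 ± 0.21 (adjusted p = 0.0869). Rrm2, the ribonucleotide reductase subunit that supplies deoxynucleotides, differed by 0.97 ± 0.20 (adjusted p = 0.0535). The thymidine kinase Tk1 differed by 0.82 ± 0.17 (adjusted p = 0.0535), the helicase subunit Mcm2 by 0.83 ± 0.18 (adjusted p = 0.0667) and the centromere histone Cenpa by 0.75 ± 0.19 (adjusted p = 0.11). Mki67, a marker of cycling cells, measured 9.11, 7.94, 8.52 and 8.15 at 6 h and 9.12, 9.72, 9.57 and 8.69 at 24 h, which overlapped, with a difference of 0.85 ± 0.31 (adjusted p = 0.254). The mitotic score at 6 h was -0.16 on replicate C and -0.60 to -0.74 on the other arrays.

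Hair follicle genes gave large differences and no call. Of the 89 probe sets at least 2-fold higher at 24 h at any p, 38 were hair keratins, keratin-associated proteins, Tchh or Padi3, and 0 of these were called. Of 18 hair shaft and root sheath genes, 17 were called lower at 6 h against sham and 0 at 24 h, beside 10.7% and 3.83% of all probe sets. Their median difference between the times was 2.18, with all 18 positive. On 0 of them were the arrays without overlap, beside 5.57% of all probe sets. Krt25, a keratin of the inner root sheath, measured 11.64, 6.74, 6.07 and 10.07 at 6 h and 12.77, 12.94, 13.17 and 10.77 at 24 h. Replicates E and F at 6 h stood lowest, while C at 6 h was above E at 24 h. The difference was 3.78 ± 0.86 (adjusted p = 0.0755). Tchh, which hardens the root sheath, differed by 3.03 ± 0.93 (adjusted p = 0.177).

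The hair score, computed like the interferon score, spread widely within each time and overlapped between the times. It was -0.53, -3.40, -3.71 and -1.37 at 6 h and 0.36, 0.09, 1.29 and -2.15 at 24 h. With this score as a covariate, 0 probe sets were called between the times. The difference of Cxcr4 was then 1.25 (adjusted p = 0.0557) and that of Cxcl10 -2.36 (adjusted p = 0.0889). The median of the mitotic list was then 0.47, of the replication list 0.47 and of the interferon-responsive list -0.74. The hair list median was then -0.17, but the score is the mean of that same list. The loss of its difference was therefore fixed in advance and says nothing about the times. Hair follicle regulators (23 measured) had a median difference of 0.41 without the covariate and 0.18 with it, and melanocyte pigment genes (11 measured) 0.42 and 0.20, with 0 called in either. Hoxc13, which controls hair keratins, differed by 1.37 ± 0.38 (adjusted p = 0.15), and Pmel, a melanosome protein, by 1.09 ± 0.35 (adjusted p = 0.196). Of the 11 melanocyte genes, 10 were called lower than sham at 6 h and 7 at 24 h, beside 10.7% and 3.83% of all probe sets.

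**Figure D2:**
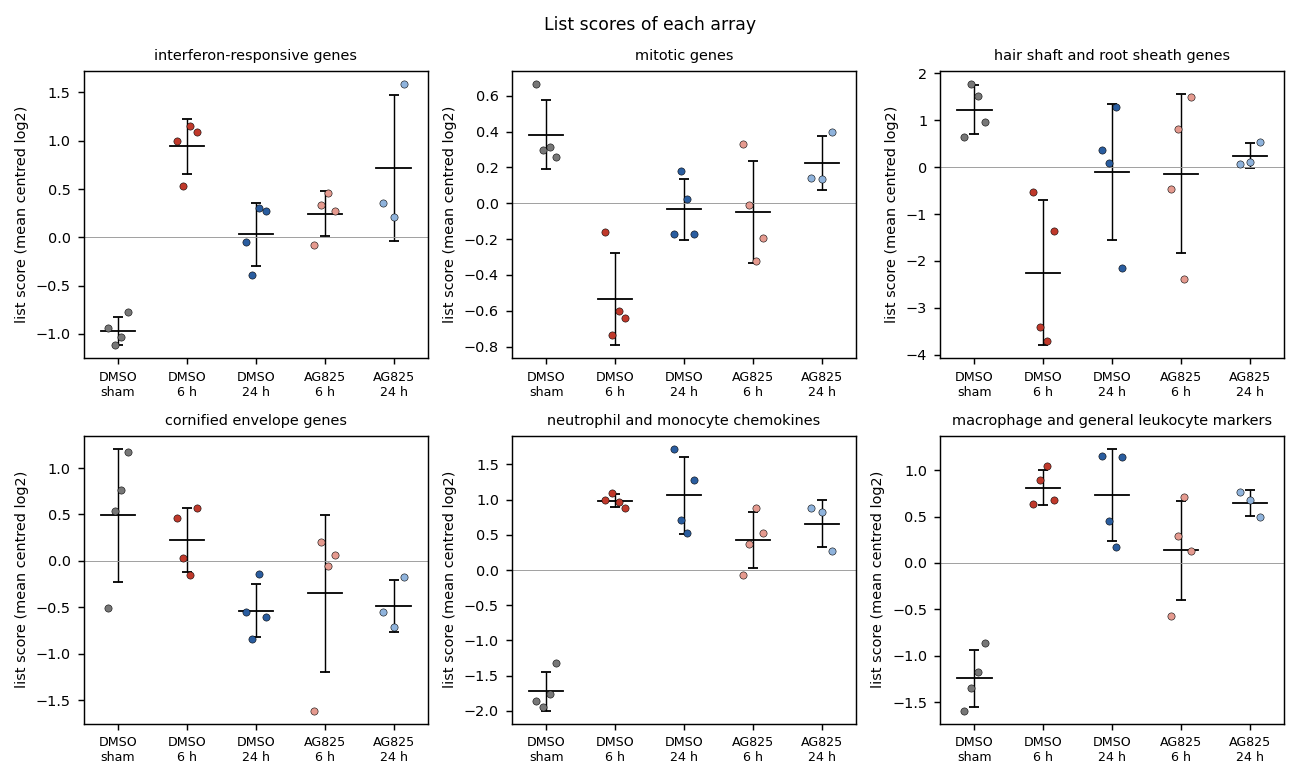
List scores (mean centred log2, vertical axis) of 6 gene lists on each array, by group; points are arrays, lines the mean and bars the SD (n = 4, and 3 for AG825 at 24 h). Interferon-responsive scores at 24 h in DMSO skin (-0.39 to 0.31) lie below those at 6 h (0.53 to 1.15); hair scores spread from -3.71 to -0.53 at 6 h, and chemokine and leukocyte scores overlap between the times.

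Cxcr4 was the 1 late riser. It is the receptor of the chemokine Cxcl12 and is found on most leukocytes and on some endothelial and epidermal cells. It measured 6.98, 6.44, 6.65 and 6.87 at 6 h and 8.05, 8.23, 7.65 and 7.88 at 24 h, while sham arrays measured 6.56 to 7.09. The 6 h arrays overlapped the sham arrays and the 24 h arrays lay above both. The rise from 6 h was 1.22 ± 0.17 (adjusted p = 0.00812), the smallest adjusted p of the comparison, and the difference from sham was -0.12 ± 0.17 at 6 h and 1.10 ± 0.17 at 24 h.

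Its ligand Cxcl12, named here after its values were seen, was called against sham at both times. The probe set with the higher signal measured 11.71, 11.57, 11.97 and 11.56 at 6 h and 12.12, 12.40, 11.91 and 12.76 at 24 h, which overlapped, with a difference of 0.60 ± 0.19 (adjusted p = 0.183). The other differed by 0.74 (adjusted p = 0.0548). Neutrophil marker scores were 0.48 to 0.94 at 6 h and 0.45 to 1.46 at 24 h, overlapping like the macrophage scores given above, and the part of these cells in the Cxcr4 rise was not tested.

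A further 348 probe sets were called against sham at 24 h and not at 6 h, with no call between the times, 177 higher and 171 lower. Cornified envelope genes, which build the outermost barrier, were among those lower. Of 25 measured, 3 were called lower at 6 h, where 10.7% of all probe sets were, and 11 at 24 h, where 3.83% were. Between the times 0 were called, 22 of 25 were lower at 24 h and the median was -0.81. On 9 the arrays did not overlap, beside 5.57% of all probe sets. Lor, the main protein of the envelope, measured 12.32, 12.14, 12.04 and 12.69 at 6 h and 11.58, 10.90, 11.54 and 10.72 at 24 h. The groups were apart and the difference was -1.11 ± 0.21 (adjusted p = 0.0535), while a second Lor probe set gave -0.26 (adjusted p = 0.287). The suprabasal keratins Krt1 and Krt10 differed by -1.36 ± 0.41 (adjusted p = 0.173) and -1.26 ± 0.36 (adjusted p = 0.154), and the filaggrin relative Hrnr by -2.06 ± 0.62 (adjusted p = 0.172). Basal keratins Krt5 and Krt14 differed by 0.30 ± 0.13 and 0.20 ± 0.20.

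Cd207, the langerin of epidermal Langerhans cells, was detected on all sham and 6 h arrays and absent on all 24 h arrays. It measured 8.51, 8.94, 8.94 and 8.82 at 6 h and 7.77, 7.64, 7.81 and 8.11 at 24 h, which made 6 h at least 1.96-fold higher. The difference did not pass (adjusted p = 0.062), while the fall from sham to 24 h did (-1.10 ± 0.21, adjusted p = 0.0019). The MHC class II invariant chain Cd74, which Langerhans cells share with other antigen-presenting cells, differed by 0.07 ± 0.30.

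Of 16 measured matrix proteases and plasminogen activators, 0 were called between the times and 11 were higher at 24 h, with a median of 0.18. Mmp13, an interstitial collagenase, measured 6.85, 5.48, 5.96 and 7.16 at 6 h and 8.20, 9.28, 8.14 and 8.34 at 24 h. It had been called higher at 6 h (1.40 ± 0.41) and was further from sham at 24 h (3.53 ± 0.41), with 2.13 ± 0.41 between the times (adjusted p = 0.0535). The gelatinase Mmp9 differed by 0.80 ± 0.19 (adjusted p = 0.0951) and the matrix glycoprotein Tnc by 1.06 ± 0.25 (adjusted p = 0.0812). Ppbp, a platelet chemokine for neutrophils, differed by 1.73 ± 0.38 (adjusted p = 0.0673). It measured 6.43, 6.39, 6.51 and 6.20 at 6 h and 9.83, 7.89, 7.03 and 7.68 at 24 h, with replicate A far above the other 24 h arrays. No probe set was called both against sham at 6 h and further in the same direction at 24 h.

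By the rule that defines the time classes, 1364 probe sets persisted: they were called against sham in the same direction at both times and not called between them. Of these 782 were higher and 582 lower. The lack of a call does not show that levels were equal. Igtp, Irf1, Zfp36 and Mmp13, whose differences between the times are given above, were in the persisting higher class. So were 10 of the 23 interferon-responsive genes, beside 782 of all 19645 probe sets. The 95% interval of the difference between the times lay within 1 log2 unit for 1190 of the 1364 and within 0.5 for 569. Among those higher, the median difference from sham was 1.01 at 6 h and 0.97 at 24 h. Among those lower it was -0.75 and -0.64. Another 2251 probe sets were called against sham at 6 h and not at 24 h, with no call between the times, 741 higher and 1510 lower. The median difference from sham of these 741 was 0.57 at 6 h and 0.29 at 24 h. For the 1510 it was -0.58 and -0.30. Having no call at 24 h does not show a return to sham.

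Of 14 measured chemokines for neutrophils and monocytes, 13 were called higher at 6 h and 12 at 24 h, beside 7.77% and 4.89% of all probe sets. The persisting higher class held 11 of the 14, and 782 of all 19645 probe sets. The median of the 14 was 2.72 above sham at 6 h and 2.59 at 24 h. Cxcl2 measured 11.21, 9.78, 9.52 and 10.48 at 6 h and 11.995, 10.79, 10.55 and 11.14 at 24 h, against 5.37 to 5.89 in sham. The times overlapped, with a difference of 0.87 ± 0.49 (adjusted p = 0.431). Cxcl5 measured 8.82 to 9.71 at 6 h and 9.78 to 10.97 at 24 h, narrowly apart, and differed by 1.17 ± 0.31 (adjusted p = 0.128). Cxcl1 differed by 0.10 ± 0.35, with an interval of -0.64 to 0.84.

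The cytokine Il1b, a central signal of skin inflammation, measured 11.85, 10.46, 10.57 and 10.84 at 6 h and 12.55, 11.42, 11.27 and 11.99 at 24 h. It was 3.22 ± 0.31 above sham at 6 h and 4.10 ± 0.31 at 24 h, with 0.88 ± 0.31 between the times (adjusted p = 0.23). Ptgs2, the inducible cyclooxygenase of prostaglandin synthesis, was 2.44 ± 0.31 and 2.70 ± 0.31 above sham. The acute-phase protein Saa3 was 4.42 ± 0.64 and 5.09 ± 0.64 above sham, although one sham array measured 10.19 while the other sham arrays measured 6.56 to 7.39. Chil3, a chitinase-like protein of myeloid cells, was absent on all sham arrays. It was at least 34.7-fold higher at 6 h and at least 23.8-fold higher at 24 h. Slfn4, a myeloid Schlafen gene, was at least 19.7-fold and 19.5-fold above sham arrays that called it absent, and differed by -0.01 ± 0.30 between the times.

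All 19 measured macrophage and general leukocyte markers were in the persisting higher class, with medians of 2.07 above sham at 6 h and 2.11 at 24 h and of -0.05 between the times. All 9 measured neutrophil markers were too, with medians of 1.45 and 1.94. Tyrobp, a signalling adaptor of myeloid cells, measured 11.68, 11.59, 11.86 and 11.61 at 6 h and 11.99, 11.13, 11.04 and 11.88 at 24 h. The range was wider at 24 h and enclosed that at 6 h. The persisting higher class held 782 of all 19645 probe sets. It held 0 of the 15 measured Langerhans, dendritic and T cell markers and 1 of 8 mast cell markers. These counts are too small to be told apart from the share of all probe sets. Ptprc, the common leukocyte antigen, differed by 0.07 ± 0.28, with an interval of -0.51 to 0.65. Of 16 endothelial and adhesion genes, 10 were in the same class. Selp, the adhesion molecule that slows leukocytes on the vessel wall, differed by -0.67 ± 0.20 (adjusted p = 0.18).

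Among the genes that stayed low, Mt4, a metallothionein of differentiating epidermis, measured 9.31, 8.22, 8.19 and 8.66 at 6 h and 9.89, 9.92, 10.71 and 7.48 at 24 h, against 11.40 to 12.42 in sham. Replicate E at 24 h lay below every 6 h array and the other 3 above them. Elovl6, which lengthens fatty acids, differed from sham by -1.56 ± 0.43 at 6 h and -2.12 ± 0.43 at 24 h on one of its probe sets. Lce1a1 and Lce1a2, late cornified envelope proteins, differed from sham by -1.36 ± 0.44 and -0.95 ± 0.29 at 6 h. At 24 h they differed by -2.19 ± 0.44 and -1.76 ± 0.29. Both thus leaned lower at 24 h than at 6 h, by -0.84 and -0.81, without a call (adjusted p = 0.404 and 0.247). Id4, an inhibitor of helix-loop-helix factors, differed by 0.72 ± 0.40 between the times (adjusted p = 0.424). Erbb2 itself, the target of AG825, differed from sham by -0.70 ± 0.15 at 6 h and -0.67 ± 0.15 at 24 h, and by 0.03 ± 0.15 between the times.

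**Figure D3:**
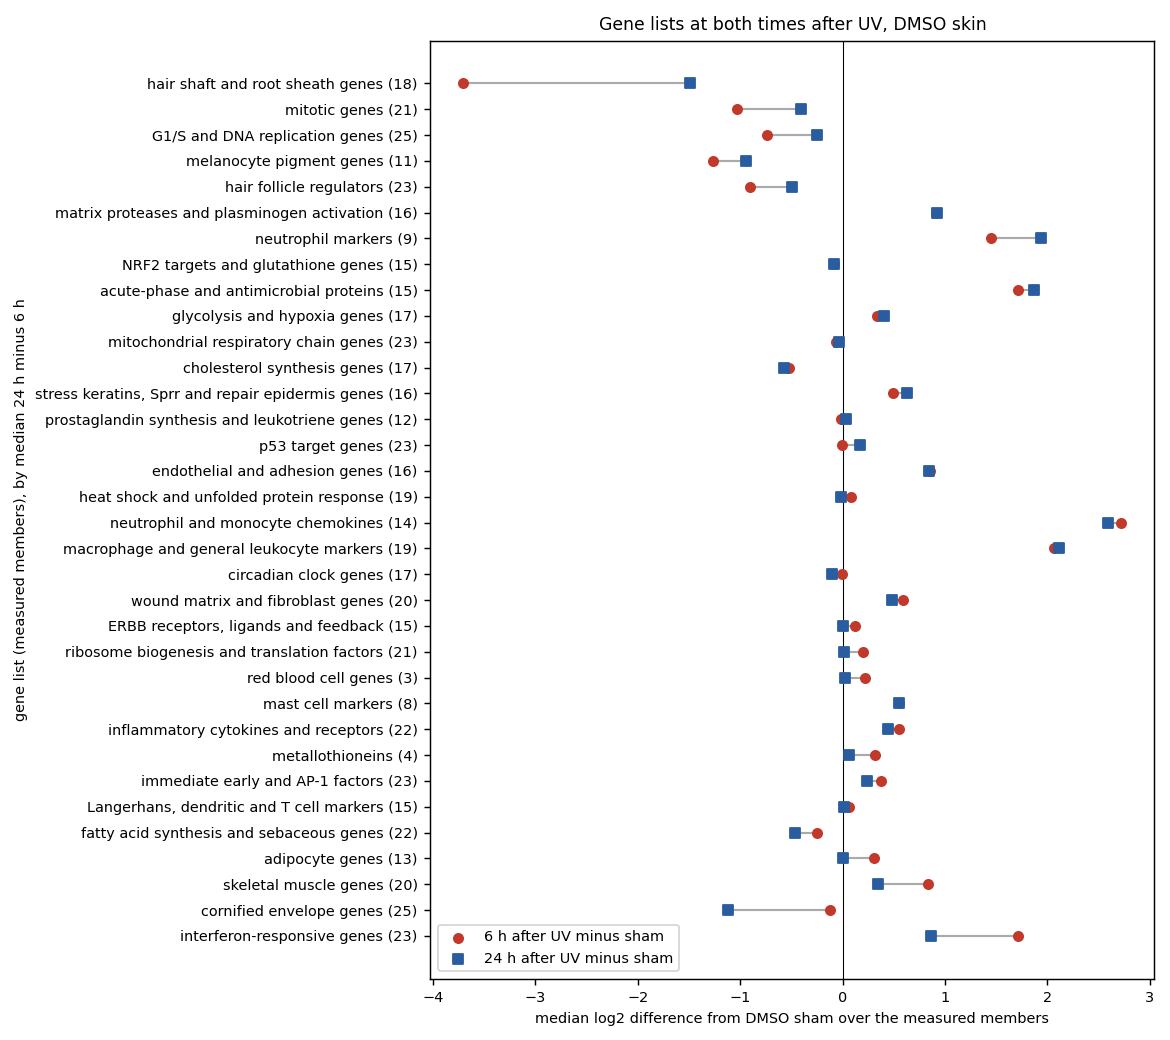
Median log2 difference from DMSO sham (horizontal axis) over the measured members of 34 gene lists at 6 h (circles) and at 24 h (squares), ordered by the median 24 h minus 6 h; both times share the 4 sham arrays. Hair shaft genes move from -3.70 to -1.49 and mitotic genes from -1.03 to -0.40, interferon-responsive genes from 1.71 to 0.86 and cornified envelope genes from -0.12 to -1.12, while macrophage markers stay at 2.07 and 2.11.

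Over the 34 lists, 576 genes were measured, of which 3 were called between the times (Cxcl10, Cxcl11 and Hspb1) and 152 had an unadjusted p under 0.05. Of all probe sets, 0.0458% were called and 13.6% had such a p. The p53 target list had a median difference of -0.01, and Cdkn1a, the p53-induced inhibitor of cyclin-dependent kinases, differed by -0.24 ± 0.17 (adjusted p = 0.527) and was not called against sham at either time. Skeletal muscle genes, which come from the thin muscle under the skin, had a median of -0.51 with 19 of 20 lower at 24 h and 0 called. Their scores were 0.20 to 0.64 at 6 h and -0.49 to 0.25 at 24 h. Clock genes had a median of -0.05. Dbp, a clock output gene, differed by 0.11 ± 0.21 and Per2 was absent on all 12 DMSO arrays. Hmox1, a haem-degrading enzyme of the oxidative stress response, differed by 0.27 ± 0.28 and the stress keratin Krt6a by 0.61 ± 0.43 (adjusted p = 0.525). Gclc, a subunit of the enzyme that limits glutathione synthesis, differed by 0.91 ± 0.23 (adjusted p = 0.109) after being called lower at 6 h.

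The AG825 arrays measured the same interval in separate samples. There 45 probe sets were called between 24 h and 6 h (0.229%), 32 higher and 13 lower. All 9 probe sets called in DMSO skin had the same sign in AG825 skin, where 69.1% of all probe sets did, and 4 were called there too: Cxcr4, Lasp1, Dera and Hspb1. Cxcr4 differed by 1.05 ± 0.18 in AG825 skin (adjusted p = 0.034), from 6.91, 6.96, 6.99 and 6.48 to 7.74, 8.10 and 7.83. Hspb1 fell by 0.63 ± 0.09 (adjusted p = 0.0185), Lasp1 rose by 0.65 ± 0.13 (adjusted p = 0.0466) and Dera rose by 0.68 ± 0.12 (adjusted p = 0.034). Cd207, not called in DMSO skin, fell by 1.21 ± 0.23 in AG825 skin (adjusted p = 0.0391), and Cxcl12 rose by 1.03 ± 0.20 (adjusted p = 0.0401). Across probe sets the differences of the 2 drug groups correlated at r = 0.37, as a description.

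On the AG825 arrays, Cxcl10 measured 8.78, 9.35, 9.84 and 10.50 at 6 h and 8.14, 8.29 and 10.68 at 24 h, with a difference of -0.58 ± 0.43. Irgm2 differed by -0.08 ± 0.27 and Cxcl11 by -0.06 ± 0.34. The median of the 23 members was 0.51, with 16 positive, beside -0.83 in DMSO skin. Without AG825 24 h replicate C, whose list score was 1.59 beside 0.36 and 0.21 on the other 2 arrays, it was 0.12, with 13 positive.

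The difference between the drug groups in the change from 6 h to 24 h was tested as an interaction. No probe set was called, 1103 had an unadjusted p under 0.05, and the lowest adjusted p was 0.601. For Cxcl11 the interaction was 1.69 ± 0.46 (adjusted p = 0.813), for Irgm2 1.31 ± 0.37 and for Cxcl10 1.58 ± 0.59, both at the same adjusted p. It was positive in 23 of 23 interferon-responsive genes, 22 of them at an unadjusted p under 0.05 and 0 after adjustment over all probe sets. The DMSO differences, negative in all 23, are subtracted in the interaction, and Cxcl11, Irgm2 and Cxcl10 were named for their DMSO calls. A positive sign is thus partly built in, and the members of a list are not replicates. Without AG825 24 h replicate C it was positive in 23 and under 0.05 in 13. The difference between the drug groups did not pass this test.

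**Figure D4:**
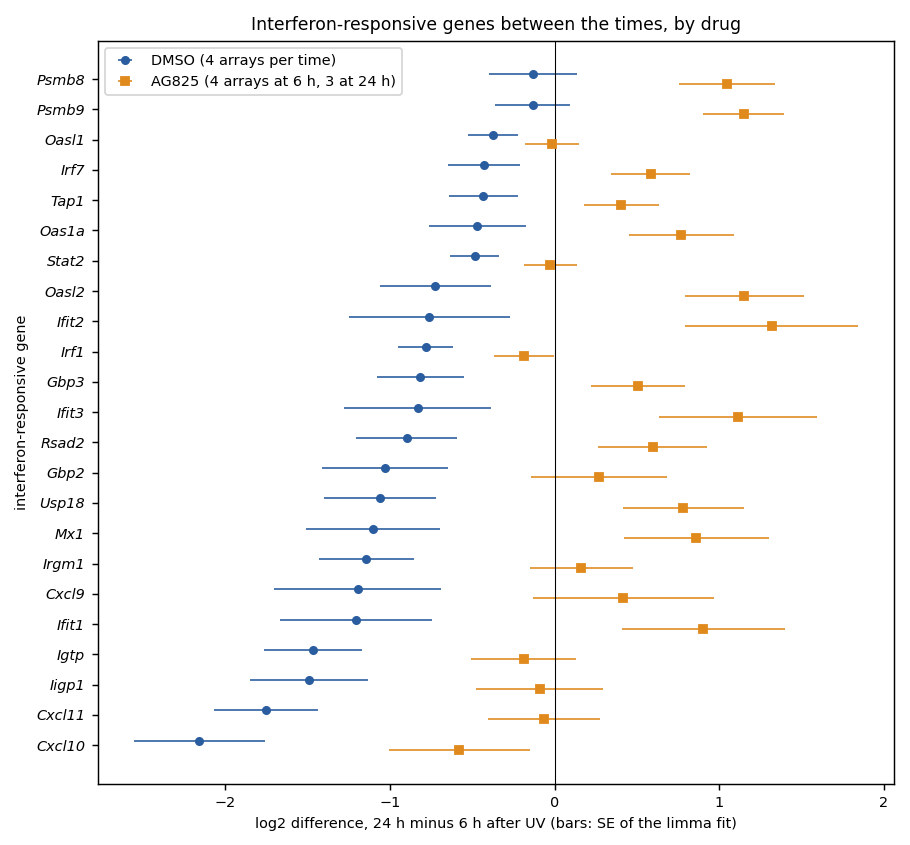
Log2 difference between 24 h and 6 h after UV (horizontal axis) of the 23 measured interferon-responsive genes in DMSO skin (circles, 4 arrays per time) and AG825 skin (squares, 4 arrays at 6 h and 3 at 24 h); bars are the SE of the limma fit. All 23 circles lie below 0, from -2.16 (Cxcl10) to -0.13 (Psmb8); 16 of the squares lie above 0, and no interaction passed the adjusted threshold.

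The number of calls depended strongly on single arrays. Without 24 h replicate B it was 0, and without 6 h replicate C, the 6 h array with the highest hair score, it was 203. Weighting arrays by their estimated quality gave 720 calls, 401 higher and 319 lower. With the percent of probe sets detected as a covariate it was 0. The 9 called probe sets kept their direction in all 270 values under the alternatives and passed the threshold in 156, Cxcr4 in 25 of 30 and the probe set assigned to several genes in 10 of 30.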

How the data were processed

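RNA from whole back skin was measured on 23 Affymetrix MOE430A arrays, grouped by the drug and exposure in the labels. The authors deposited RMA log2 values, per the submitters' processing notes, and dChip and GCOS signal tables with detection calls, per the file headers; scaling settings are not given in the sources used here. RMA log2 values of 19645 probe sets were fitted with limma 3.58.1 in R 4.3.3, with 1 mean for each of 6 groups and no filter, and p-values were adjusted by Benjamini-Hochberg over all probe sets (two-sided, 20.7 degrees of freedom). Spread is thus pooled over all groups, and precision is limited by how many arrays there are. "Detected" and "absent" come from the deposited dChip calls. Where a group was absent on all its arrays, folds are given as "at least", against the higher of its own signal and the lowest detected signal on each array.

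Time classes combine 3 contrasts that share arrays: 6 h against sham, 24 h against sham and 24 h against 6 h. For a gene on a list, the brightest probe set on average over all arrays was used; 580 of 664 list entries had one. Of all probe sets, 17825 name 1 gene, 445 several and 1375 none, and symbols follow the platform annotation. Named genes were the called probe sets that name 1 gene and whose arrays do not overlap (up to 12 rises and 12 falls), the 6 with the largest difference in each class, up to 4 of each list by adjusted p, and a panel of 10 genes; part of these are printed. The members and lists were chosen with earlier results of these data known. The fit was tested on simulated data. Alternatives were other summaries (log2 of signal plus 16 or 1, GCOS first scaled to a trimmed mean of 500 on each array), a detection filter, fewer arrays, a replicate block, array weights, covariates, an intensity trend, a test against a 1.5-fold change and leaving out each array in turn. Those added after seeing the data were a threshold of 0.10 and leaving out AG825 arrays.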

Additional observations from a re-analysis of the deposited data

Results flagged for a closer look

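In 231 groups of 4 arrays, over the named genes and list scores, the highest or lowest array was compared with its neighbour. In 17 the gap exceeded 0.829 of the group's range, Dixon's 95% limit for 4 values, which chance alone passes in about 1 of 20 groups. The lowest DMSO sham array stood apart for Lasp1 at a log2 signal of 9.50, for Cxcl2 at 5.37, for Atf3 at 7.24, for Igtp at 8.09, for Mcm2 at 8.85 and for Hmox1 at 8.27. The highest sham array stood apart for Cxcl5 at 5.77, for Cxcl1 at 6.73, for Mmp13 at 5.38, for the ERBB ligand Epgn at 9.11, for Mki67 at 10.87 and for the mitotic list score at 0.67. At 24 h the lowest array stood apart for Irf1 at 9.51 and for Krt25 at 10.77, and the highest for Rrm2 at 9.53 and for Tk1 at 9.35. At 6 h the lowest array stood apart for the nuclear receptor Rora at 9.68.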

How the results depend on the processing

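The 9 calls between the times became 34 with dChip signal plus 16, 17 with GCOS signal plus 1 (DMSO 6 h replicate G is not in the GCOS table), 53 among 13321 probe sets detected on at least 4 of the 8 arrays, 1 on the 8 arrays alone, 720 with array weights, 121 at a threshold of 0.10, and 0 with percent detected or hair score as covariate or against a 1.5-fold change. With the replicate block they were 0, as were fading or recovering, late and list member counts. Only letters C and E occur at both times, their deviations correlated at 0.35 and 0.36 beside -0.46 to 0.25 for other pairs, and the labels do not say what letters mark. Leaving out one array gave 0 (24 h B) to 203 (6 h C) calls. It gave 80 without 24 h E, 61 without AG825 6 h A, 48 without AG825 6 h E, 36 without AG825 24 h C, 31 without 6 h F, 17 without 24 h C, 15 without sham D or AG825 6 h D, 3 without 6 h E, and 4 without 24 h A, sham A, B or C, AG825 6 h B or AG825 24 h B. In that order of settings (dChip plus 16, GCOS plus 1, detection filter, weights), fading or recovering (8) became 26, 15, 41 and 553, and late (1) became 4, 2, 9 and 63. On DMSO arrays alone these were 4 and 3, late was 3 with dChip plus 1, and both were 0 with either covariate or against 1.5-fold. Growing (0) became 1 with dChip plus 16, 2 with the filter and 6 with weights. Leaving out one array gave 0 to 164 fading or recovering, 0 to 6 growing, 0 to 23 late and 803 to 1490 persisting. Persisting (1364) was 805 and 717 with GCOS plus 16 and plus 1, 498 with the hair covariate and 121 against 1.5-fold. List members (3) became 8 with dChip plus 16, 0 with GCOS plus 16 or plus 1, 10 with the filter, 1 on the 8 arrays, 67 with weights, 0 with either covariate or against 1.5-fold, and 0 to 33 with one array left out. Interaction calls (0) were 1 with dChip plus 16, 3 and 4 with GCOS plus 16 and plus 1, and 0 to 1 with one array left out. Calls with the same sign in AG825 skin (9) were 7 to 9 with one array left out. Of 2099 values of the 70 named genes, 1880 kept direction and side of the threshold, 114 lost a call, 105 gained one and 0 reversed. The hair list median (2.18) was 1.05 with percent detected as covariate and 1.73 to 3.44 under the other summaries and array omissions. With the hair covariate, which is made from that same list, it was -0.17, a loss fixed in advance. The interferon median (-0.83) was -0.40 with the replicate block, the mitotic median (0.62) 0.38 and the replication median (0.42) 0.23 with percent detected as covariate; these and the cornified median kept their sign under every alternative run. Causes of these changes were not tested.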
